A study of Mus musculus with 4 samples.

Results

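Effector CD8 T cells of CT26 tumors are described here, taken as every cell that carried the cluster name CD8_Teff in the deposited table of cells. They were 629 of 17674 cells, or 3.56%. Of these, 416 came from Cyp51-KO (knockout) tumors and 213 from sg-Ctrl (control) tumors. The cells they are set against are the other CD8 T cells, namely 2230 exhausted cells (CD8_Tex), 2480 cells of the CD8_Temra cluster and 93 cells of the CD8_HSP+ cluster, which together with the effector cells make 5432 CD8 T cells.

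CT26 is a colorectal cancer line of BALB/c mice. Cyp51-KO CT26 cells carried a lentiviral CRISPR construct with a guide against Cyp51, an enzyme of cholesterol synthesis, and sg-Ctrl cells carried the same construct with a control guide. Both lines were sorted for the blue fluorescent protein TagBFP that the construct encodes, and nothing in the methods says that either was a single clone. The knockout was therefore in the tumor cells, and the T cells studied here came from hosts in which Cyp51 had not been targeted, in both groups. The methods give male BALB/c mice aged 8 to 10 weeks for orthotopic CT26 tumors, which are grown in the colon. The tumors, 9 with the knockout and 12 controls, were taken at day 26. All leukocytes (CD45+), T cells (CD45+ CD3+) and tumor cells (CD45- BFP+) were sorted separately and mixed at 50%, 40% and 10%, so that T cells were enriched and shares of cells describe the sequenced mix.

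Effector CD8 T cells are the arm of the CD8 lineage that kills. They recognise a peptide on the surface of an infected or malignant cell and release granules that hold perforin, which opens the target membrane, and granzymes, proteases that set off cell death in the target. Many also secrete interferon gamma. In tumors, CD8 T cells that keep meeting their antigen can pass into exhaustion, a state of reduced function in which inhibitory receptors, PD-1 among them, stay on the surface. The authors give Temra as effector or effector memory T cells that were activated recently. By their definition this reference cluster may itself hold effector cells. The name Temra is otherwise used for terminally differentiated effector memory cells that have regained CD45RA, and HSP+ stands for cells with high heat-shock genes.

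The cluster name was checked as far as the data allowed. The table held the number of unique molecular identifiers (UMIs, each standing for 1 captured RNA molecule), the number of genes detected and the mitochondrial percentage of each cell. Expression of single genes in these cells was not analysed here, so neither Cd8a, Gzmb nor Ifng could be given a level in either group. On the authors' list of leading genes, which pools both groups, the effector cluster was led by Gzmf, Gzmd, Gzme, Gzmc, Nrgn, Prf1, Serpinb9b, Cd8a, Cd3g and Gzmb. Cd8a encodes the alpha chain of the CD8 co-receptor, Cd3g a chain of the T cell receptor complex, Prf1 perforin, and Serpinb9b a serine protease inhibitor. Ifng, the gene of interferon gamma, was not on the list of the effector cluster and was on that of exhausted cells. Gzmd, Gzme, Gzmf and Prf1 were shared with 1 other cluster only, the second functional NK cluster. Nrgn, Cd8a and Cd3g were shared with exhausted cells, and Serpinb9b stood on no other list. Each list was cut to the top genes of its cluster, so absence from a list does not mean absence of expression. By the authors' methods, such genes helped to name clusters that had already been formed. They are background to the values that follow, not results.

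Because granzymes lead the list, the 5 granzyme genes on it were placed on the genome. All lie on the minus strand of chromosome 14 of GRCm38 (GENCODE M21), within 1 gene cluster, and each has 5 exons with its start codon in exon 1. Gzmb spans chr14:56258838-56262260, Gzmc chr14:56231441-56234656, Gzmd chr14:56129556-56132608, Gzme chr14:56117626-56120625 and Gzmf chr14:56205263-56211417. The first 55 coding bases of each follow, all of them in exon 1 and on the strand of the gene, at chr14:56132468-56132522 for Gzmd, chr14:56211303-56211357 for Gzmf, chr14:56234528-56234582 for Gzmc, chr14:56120502-56120556 for Gzme and chr14:56262095-56262149 for Gzmb. They are shown since the library kit reads transcripts from the 5′ end. Gzmc, Gzmd, Gzme and Gzmf are near copies of each other over these bases, whereas Gzmb is not. Untranslated bases ahead of the start codon were not compared. Capitals mark the bases that differ from Gzmd at the same position, counted from the start codon.
Gzmd: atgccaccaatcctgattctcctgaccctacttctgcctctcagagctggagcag
Gzmf: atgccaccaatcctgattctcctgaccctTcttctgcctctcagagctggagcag
Gzmc: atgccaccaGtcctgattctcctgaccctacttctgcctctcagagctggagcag
Gzme: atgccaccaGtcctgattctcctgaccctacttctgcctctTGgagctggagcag
Gzmb: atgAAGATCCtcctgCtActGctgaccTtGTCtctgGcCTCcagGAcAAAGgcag

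Gzmf and Gzmc differed from Gzmd at 1 base each of these 55, Gzme at 3 and Gzmb at 24. Over the whole coding sequence Gzmd and Gzme were 93.3% identical, Gzme and Gzmf 84.9%, and Gzmd and Gzmf 83.4%. The lowest identity of the 10 pairs was 64.8%, between Gzmb and Gzmd, and Gzmb was nearest to Gzmc, at 75.1%. A stretch of 90 bases, a length chosen here, was shared without a mismatch only between Gzmd and Gzme, in 1.06% of the windows of Gzme. The other 9 pairs shared none of these windows. How reads were divided among the genes was not analysed here. These are bases of the reference genome and not of the BALB/c cells.

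Some limits hold for every value that follows. Although 2 samples were listed per group, the table tied each cell to its group and not to its library or tumor. Each group was therefore 1 sample, and neither a test nor a p-value can be given. The 95% intervals are exact, by the Clopper-Pearson method for shares and by the order of the cells for medians. Both cover counting error only, and differences between tumors, sorts and libraries cannot be told apart from the effect of the knockout. The groups shared 98 cell barcodes, of which 10 had the same cluster name in both. Among these barcodes 4 effector cells lay in knockout and 5 in control tumors, with 0 in both. No barcode was repeated within a group, although each group combined 2 samples. Median UMIs over all CD8 T cells were 4201.5 in knockout and 7443.5 in control tumors.

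Effector cells made up a larger part of CD8 T cells in knockout tumors. They were 15.0% of CD8 T cells there (416 of 2770 cells, 95% interval 13.7 to 16.4%) and 8.0% in control tumors (213 of 2662 cells, 7.0 to 9.10%). This is a fold of 1.88, or a log2 ratio of 0.91, and the range obtained by setting the bound of one share against the opposite bound of the other was 0.59 to 1.23. With CD8 T cells of both groups taken to the same UMI distribution, the shares were 20.9% and 6.32% (log2 ratio 1.73), the same direction with a larger difference. The groups differed in depth, so that cells of equal UMIs held different ranks within their groups. This value is therefore not a correction for depth. Both groups gave almost the same number of CD8 T cells, but out of 10484 sequenced cells in knockout and 7190 in control tumors. Of the 4 CD8 clusters, the effector cluster had the log2 ratio furthest from 0. Whether the leading genes of the effector cluster were expressed alike in both groups was not analysed here, and the clusters were used as the authors drew them. Exhausted cells were 35.5% of CD8 T cells in knockout tumors (33.7 to 37.3%) and 46.9% in control tumors (45.0 to 48.8%), a log2 ratio of -0.40. Temra cells were 47.9% (46.0 to 49.8%) and 43.3% (41.4 to 45.2%), a log2 ratio of 0.15. The HSP+ cluster was 1.62% and 1.80%, with 45 and 48 cells and overlapping intervals.

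**Figure D1:**
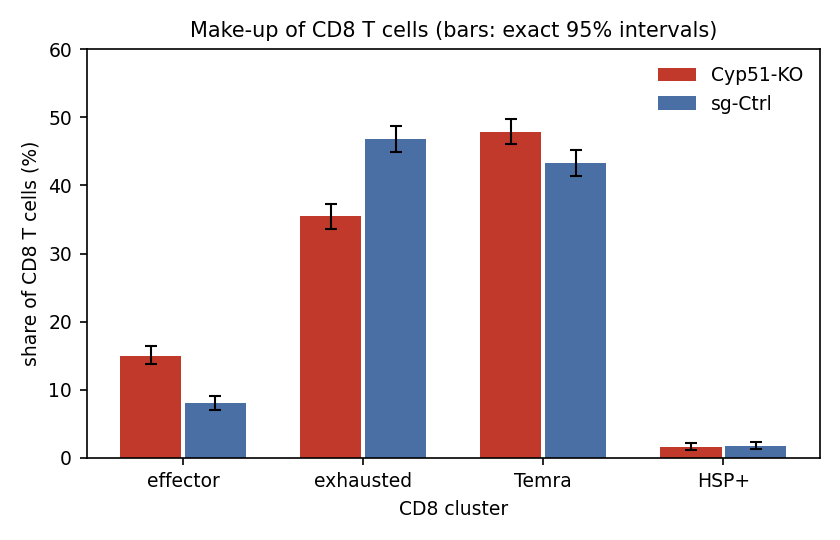
Share of each CD8 cluster among CD8 T cells, 2770 in the Cyp51-KO and 2662 in the sg-Ctrl group, in percent, with exact 95% binomial intervals as error bars. The effector share is 15.0% against 8.0%, the exhausted share lies lower in Cyp51-KO tumors, and the HSP+ intervals overlap.

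Shares of a whole are bound to each other, and so the other CD8 clusters were also taken without the effector cells. Exhausted cells were then 41.7% of the remainder in knockout tumors (39.7 to 43.7%) and 51.0% in control tumors (49.0 to 53.0%), a log2 ratio of -0.29. The lower share of exhausted cells thus remained when effector cells were not counted. In the same way, effector cells were 23.3% against 15.1% of CD8 T cells when exhausted cells were left out (log2 ratio 0.63, range 0.32 to 0.93). Without Temra cells they were 28.8% against 14.1% (1.03, 0.73 to 1.33). The effector share kept its direction with each of these clusters removed, with intervals apart. CD8 T cells as a whole were 61.9% of T cells in knockout tumors and 65.8% in control tumors, a log2 ratio of -0.09. Over T cells, lymphocytes and immune cells the effector share had log2 ratios of 0.82, 0.77 and 0.66. Over all cells it was 3.97% against 2.96%, a log2 ratio of 0.42, a denominator that includes the sorted tumor cells. Immune cells were 7903 of 10484 cells in knockout and 6394 of 7190 in control tumors. The part outside the immune cells thus differed between the groups, although the mix was meant to be the same.

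Counted against 1 other cluster at a time, effector cells differed most between the groups when set against exhausted cells. There were 0.424 effector cells per exhausted cell in knockout tumors (95% interval 0.377 to 0.476) and 0.171 in control tumors (0.147 to 0.198), a log2 ratio of 1.31 (range 0.93 to 1.69). At the same UMI distribution the numbers were 0.516 and 0.155 (log2 ratio 1.74). Per Temra cell there were 0.313 and 0.185 effector cells, a log2 ratio of 0.76 (0.39 to 1.14). Per HSP+ cell the numbers were 9.24 and 4.44, with a range of 0.13 to 1.99 around a log2 ratio of 1.06. All 3 ranges lay above 0.

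The T cell clusters outside the CD8 group that were used as a reference gave the same direction. A further T cell cluster, Th17, was not used as a reference, so its ratio is not given here. Per proliferating T cell there were 0.782 and 0.549 effector cells (log2 ratio 0.51, range 0.08 to 0.95). Per Th1-like cell there were 0.618 and 0.354 (0.80, 0.40 to 1.22). Per Treg cell, the suppressive arm of CD4 T cells, there were 1.36 and 0.813 (0.75, 0.26 to 1.23). The second functional NK cluster, which shared the granzyme and perforin genes of the effector cluster, had the smallest difference. It held 184 cells in knockout and 108 in control tumors, so that there were 2.26 and 1.97 effector cells per cell of that cluster. The log2 ratio was 0.20, with a range of -0.40 to 0.80 that spanned 0. A difference in this ratio was not detectable at these cell numbers. NK cells came from the sort of all leukocytes alone and T cells from both leukocyte sorts, and whether the mixing moved this ratio was not tested.

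**Figure D2:**
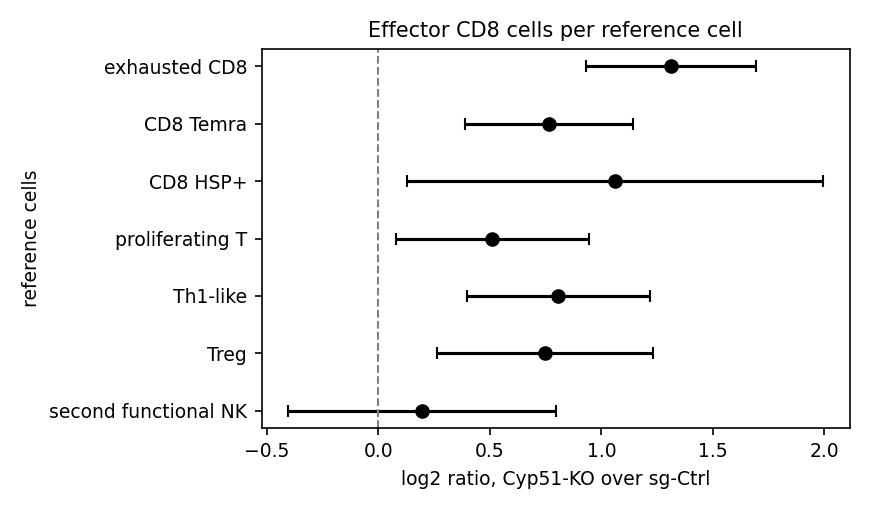
Log2 ratio, Cyp51-KO over sg-Ctrl, of the number of effector CD8 cells per cell of 7 reference clusters, with ranges that set one group's exact 95% bound against the other's. The ranges lie above 0 for the 6 T cell clusters shown, and that of the second functional NK cluster spans 0. The Th17 cluster was not among the references.

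Effector cells carried more UMIs than most other T cells in both groups, and fewer in knockout than in control tumors. The median effector cell had 8245 UMIs in knockout tumors (95% interval 7776 to 9098) and 11833 in control tumors (11180 to 12729), a log2 ratio of -0.52 (range -0.71 to -0.30). The lowest effector cell had 995 UMIs in knockout and 592 in control tumors, and the highest had 69939 and 41495. The quartiles were 5846.5 and 13250.5 UMIs in knockout tumors against 9105 and 15758 in control tumors. The distributions overlapped widely, with both quartiles lower in knockout tumors. The 10th percentile was 4070 against 6671.6 and the 90th was 18918 against 22555.2.

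The gap between the groups was wider in Temra cells than in effector cells. Median UMIs were 3005 against 6112 in Temra cells (log2 ratio -1.02, range -1.12 to -0.95), a range apart from that of effector cells. In exhausted cells they were 5496 against 8568.5 (-0.64, -0.75 to -0.53), a range that overlapped it. HSP+ cells were at 3680 against 5679.5 (-0.63), with intervals that overlapped. Of the 8 T cell clusters, the effector cluster ranked 2 by median UMIs in both groups, after proliferating T cells at 12244.5 and 17037. It also ranked 2 of the 8 by log2 ratio of UMIs, proliferating T cells being at -0.48. By the ratio of medians to the other CD8 T cells of the same group, effector cells therefore stood higher in knockout tumors. Their median was 2.20 times that of all other CD8 T cells in knockout tumors and 1.64 times in control tumors. The make-up of these other cells differed, with Temra cells at 56.4% of them in knockout and 47.1% in control tumors. Against Temra cells the folds were 2.74 and 1.94, and against exhausted cells 1.50 and 1.38. Of the effector cells, 95.7% lay above the Temra median of their group in knockout tumors and 92.5% in control tumors. For the exhausted median the percentages were 77.4% and 78.4%.

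**Figure D3:**
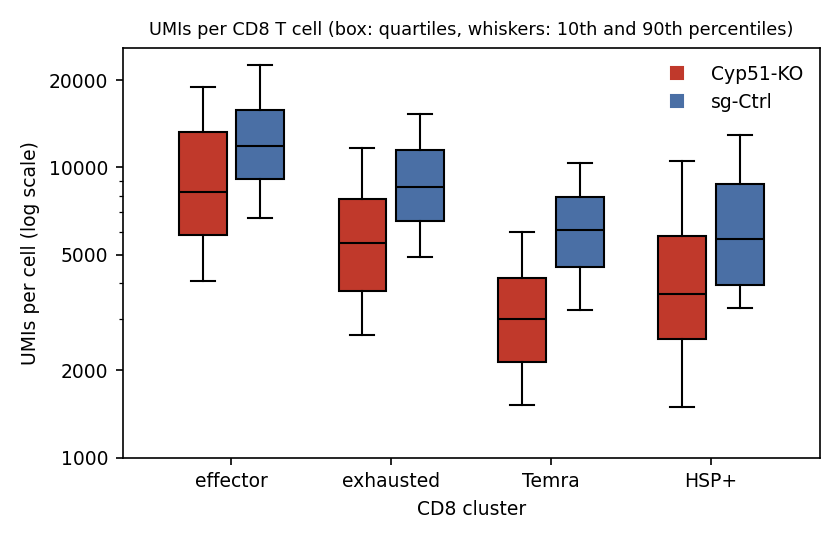
UMIs per cell (log scale) of the 4 CD8 clusters in either group (Cyp51-KO, sg-Ctrl), as boxes from the lower to the upper quartile with the median as a line and whiskers at the 10th and 90th percentiles. Effector cells have the highest median of the 4 clusters in both groups, 8245 and 11833 UMIs.

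The effector cells of knockout tumors held a larger part of the CD8 RNA that was sequenced. Of the UMIs of all CD8 T cells they held 27.7% in knockout tumors (4312383 of 15546276) and 12.4% in control tumors (2818619 of 22669819). At the upper end, the 99th percentile of all CD8 T cells lay at 24470.4 UMIs. Of the cells above it, 11 of 20 were effector cells in knockout tumors and 13 of 35 in control tumors. At the lower end, 9 effector cells (2.16%) in knockout and 2 (0.939%) in control tumors had fewer than 2000 UMIs. Among the other CD8 T cells these were 338 cells (14.4%) and 43 cells (1.76%). Cells with few UMIs were thus mostly a matter of the other clusters. How many of the CD8 cells with few UMIs would have been placed in the effector cluster at greater depth was not tested.

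The share of effector cells was then followed along UMIs per cell. CD8 T cells of both groups were divided into 10 bins of equal total size with the same limits for both groups. In the top bin, from 12940 to 69939 UMIs, 109 of 195 CD8 T cells of knockout tumors were effector cells (55.9%, 48.6 to 63.0%), against 90 of 349 in control tumors (25.8%, 21.3 to 30.7%). In the bin from 6947 to 8173 UMIs they were 31.7% (25.03 to 39.0%) and 3.61% (1.94 to 6.10%). In the bin from 4992 to 5982 UMIs they were 15.9% and 1.72%. The share rose with UMIs in both groups, and began to rise at fewer UMIs in knockout tumors. It was higher in knockout tumors in 9 of the 10 bins, and the intervals lay apart in 8, all of them higher in knockout tumors. In the bin of the fewest UMIs it was 2.28% against 4.84%, from 11 and 3 effector cells, with overlapping intervals. The 3 bins of the fewest UMIs together held 42 effector cells of 1342 CD8 T cells in knockout tumors and 3 of 288 in control tumors. In the bins from 2291 to 3175 and from 3176 to 4067 UMIs, control tumors had 0 effector cells of 93 and 133 CD8 T cells, for which the exact upper bounds are 3.89% and 2.74%.

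A fixed number of UMIs need not select like cells in groups that differ in depth. Each group was therefore also divided into deciles of its own CD8 T cells by UMIs. The effector share was higher in knockout tumors in 10 of 10 deciles, with intervals apart in the 4 deciles of the most UMIs. In the top decile it was 51.6% (45.6 to 57.6%) against 27.0% (21.7 to 32.7%). In the decile below it, the shares were 31.8% and 17.3%, and in the next ones 23.1% and 12.4%, then 16.6% and 6.02%. Placed by rank in this way, the effector cells of both groups had almost the same distribution. The top decile held 34.4% of the effector cells of knockout tumors and 33.8% of those of control tumors, and the top 3 deciles held 70.9% in both.

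**Figure D4:**
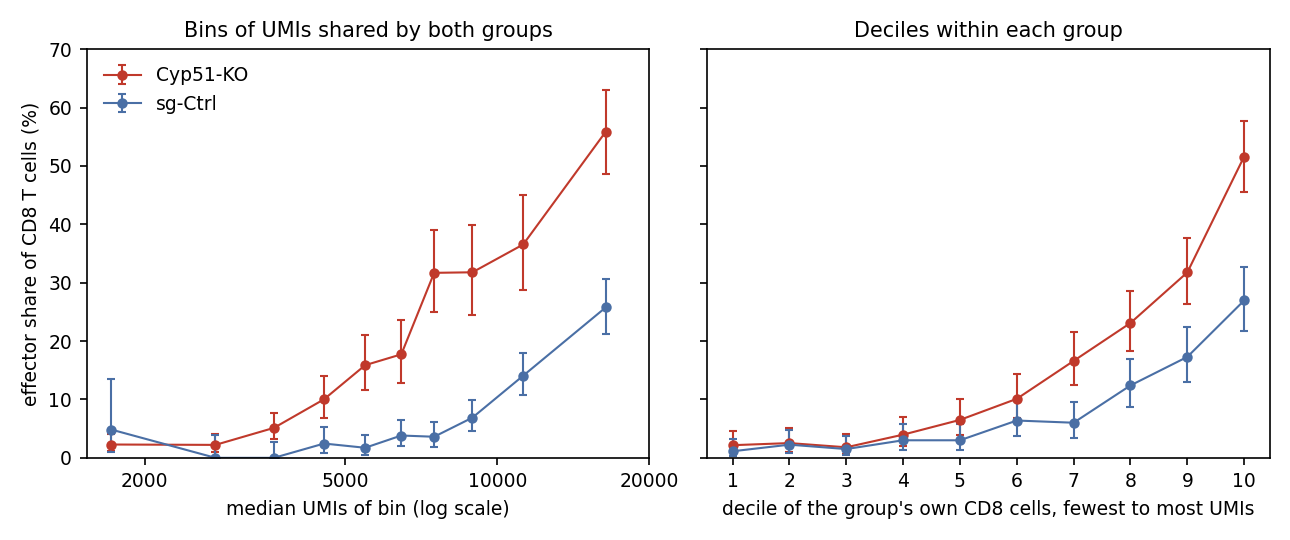
Effector share of CD8 T cells, in percent with exact 95% binomial intervals, in 10 bins of UMIs with limits common to both groups, each placed at its median UMIs on a log scale (left), and in deciles of each group's own CD8 T cells ordered by UMIs (right). The Cyp51-KO share is higher in 9 of 10 bins and in 10 of 10 deciles, reaching 55.9% against 25.8% in the top bin and 51.6% against 27.0% in the top decile.

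The weighting to the same UMI distribution given above used these common bins, which held different mixes of cells in the groups. In the lowest bin Temra cells were 82.4% of CD8 T cells in knockout and 64.5% in control tumors, and in the top bin 5.64% and 9.17%. Per exhausted cell, effector cells were more numerous in knockout tumors in 9 of the 10 bins. The ratio was 1.47 against 0.405 in the top bin and 0.167 in both groups in the lowest.

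Fewer genes were detected per effector cell in knockout tumors, with a smaller difference at equal UMIs. The median was 2357.5 genes (95% interval 2263 to 2480) against 3104 (2990 to 3227), a log2 ratio of -0.40 (range -0.51 to -0.27). At the same distribution of effector UMIs, over the 7 bins that held at least 5 effector cells of each group, the medians were 2673 and 2849 genes, from 374 and 210 cells. The log2 ratio was -0.09. The median was lower in knockout tumors in 7 of these 7 bins, with intervals apart in 1. In the top bin it was 3673 (3501 to 3845) against 3887.5 (3776 to 3994) genes. Exhausted and Temra cells were weighted in the same way, and HSP+ cells were not. Exhausted cells had 2205 and 2394 genes and Temra cells 1516 and 1646, both with log2 ratios of -0.12. Fewer genes at equal UMIs were thus seen in both of these clusters too, with no test at 1 sample per group.

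Effector cells had more genes than the other CD8 clusters of their own group. The median was 1.27 times that of exhausted cells in knockout tumors and 1.18 times in control tumors. It was 1.95 and 1.52 times that of Temra cells. After the SCTransform normalization by the authors, which brings cells towards a common depth, the total per effector cell was 7359 in knockout and 7806 in control tumors. The genes above 0 on that scale were 2253.5 and 2828, a log2 ratio of -0.33. On this scale the groups lay closer in the totals, at a log2 ratio of -0.085, than in genes.

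The mitochondrial percentage, the part of the UMIs of a cell that comes from the mitochondrial genome, is commonly read as a sign of cell quality and also differs with metabolic state. In effector cells its median was 0.912% in knockout tumors (0.869 to 0.952%) and 1.24% in control tumors (1.19 to 1.29%), a difference of -0.33 percentage points (range -0.42 to -0.24). The quartiles were 0.727% and 1.13% in knockout tumors and 1.05% and 1.47% in control tumors. The highest effector cells had 4.71% and 3.13%, under the maximum of 5% that the authors had set. In numbers of molecules, the median effector cell had 81 mitochondrial UMIs (75 to 88) in knockout and 147 (138 to 160) in control tumors, a log2 ratio of -0.86.

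The lower percentage was also present among effector cells with like numbers of UMIs. At the same effector UMI distribution it was 0.907% against 1.26%, a difference of -0.35 points. It was lower in knockout tumors in 7 of 7 bins, with intervals apart in 4. In the top bin it was 0.839% (0.791 to 0.919%) against 1.18% (1.10 to 1.25%), and in the bin before it 1.0% (0.848 to 1.09%) against 1.32% (1.21 to 1.44%). Other CD8 cells showed the same direction. Exhausted cells had 0.926% and 1.20%, Temra cells 0.872% and 1.14%, and HSP+ cells 0.661% and 1.14%, the last with the widest intervals. The lower percentage was thus common to the CD8 clusters of knockout tumors, and whether it was larger in effector cells than in the others was not tested.

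**Figure D5:**
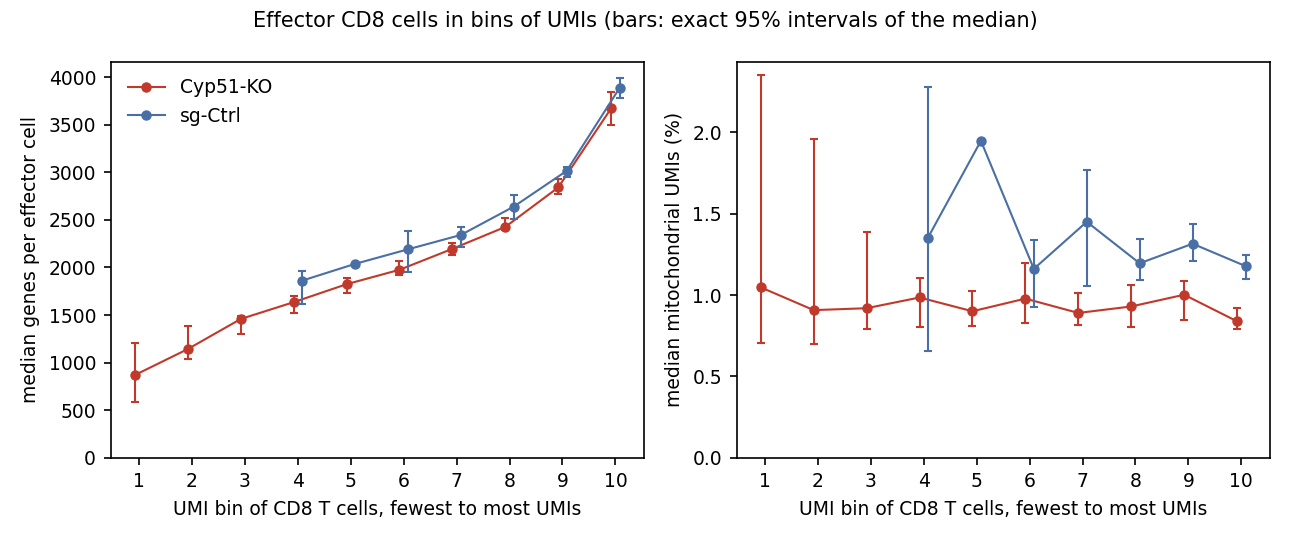
Median genes detected per effector CD8 cell (left) and median mitochondrial UMIs in percent (right) in 10 bins of UMIs, drawn separately by group (Cyp51-KO, sg-Ctrl). Bars give exact 95% intervals. Bins with fewer than 5 sg-Ctrl effector cells have no sg-Ctrl point and bin 5, with 5 cells, has no interval. In each of the 7 bins with both groups, the Cyp51-KO median is the lower one in both panels.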

How the data were processed

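Single-cell libraries (10x Chromium 5' kit v2) of 4 samples, 2 per group, were made by the authors. Per the methods and the submitters' processing notes, reads were aligned to GRCm38 with Cell Ranger 7.0 and cells were analysed in R 4.2.0 with Seurat 4.2.0. The authors kept cells with 200 to 7000 genes, 500 to 100000 UMIs and at most 5% mitochondrial UMIs. They normalized with SCTransform, regressing out the mitochondrial percentage, and clustered and named the cells. After a first clustering they removed a few very small clusters of control cells, which they thought might be sequencing noise. No such removal is described for knockout cells. The deposited table gives per cell the raw UMI counts summed over genes, the genes detected, the mitochondrial percent, and the SCTransform totals, used here as a score. The handling of doublets was not given in the sources used, and a doublet caller was not run. The authors' Wilcoxon tests over cells were not repeated.

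Cells were grouped by the group name of the table and by the start of the cell name, read against the sample titles. The 4 samples were taken as 1 sample per group. Shares, medians, exact 95% intervals and their ratios were computed in Python 3.11.15 with pandas 2.3.3, NumPy 2.4.6 and SciPy 1.17.1. Figures were drawn with Matplotlib 3.10.9. Granzyme sequences come from the GENCODE M21 transcripts, aligned with Biopython 1.88. Genes are named only from the list of markers and the authors' leading genes, with no values. The members, lists and alternatives were chosen with earlier results of these data known. Cell numbers, from 416 and 213 effector cells, and UMIs per cell set the precision, which covers counting error only.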

Additional observations from a re-analysis of the deposited data

How the results depend on the processing

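Of 35 alternative values, 25 stayed within the counting range of the value reported, 9 moved beyond it and 1 reversed. The share of effector cells (log2 ratio 0.91) moved to 0.42 over all cells and to 1.73 at the same UMI distribution. It was 1.55 in cells of at least 4000 UMIs (25.7% against 8.79%) and 1.68 in cells of at least 6000 UMIs (34.8% against 10.9%). Effector cells per exhausted cell (1.31) were at 1.74 at the same UMI distribution (0.516 against 0.155). With other reference cells the log2 ratio was 0.76 per Temra cell and 0.20 per cell of the second functional NK cluster. Median genes (-0.40) were at -0.27 with CD8 cells at the same UMI distribution (2515 against 3028) and at -0.092 with effector cells at the same UMI distribution. Median UMIs (-0.52) reversed to 0.42 when taken relative to the other CD8 cells of the group, since those differed more between the groups. The part of Temra cells among those other cells also differed between the groups. The mitochondrial percentage kept its direction in 5 of 5 alternatives. The share was 0.95 among the CD8 cells with the most UMIs of either group (above its median) and 0.64 among the others. It was 0.92 with a minimum of 1000 UMIs and a mitochondrial maximum of 2.5%. Leaving out the 5% of cells with the most UMIs took almost the same part of each cluster in each group. The share (15.02% against 7.99%, log2 ratio 0.91) and the ratio per exhausted cell could therefore hardly move. Both are still counted among the values that stayed.

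No paired analysis was possible because no cell can be assigned to a library, and leaving out each library was not run for the same reason. The UMI minimums of 4000 and 6000, the split at the UMI median, the other reference cells, the denominators without exhausted or Temra cells, the scale relative to other CD8 cells, the SCTransform genes and the effector UMI distribution were chosen after seeing the data. Depth limits the comparison of effector shares at equal UMIs in all common bins, since such cells held different ranks within their groups. The bin from 6947 to 8173 UMIs lay between the medians of deciles 8 and 9 of knockout CD8 T cells (6810 and 8934). It held the medians of deciles 5 and 6 of control CD8 T cells (7057.5 and 7935). Below 4068 UMIs a further limit was that sg-Ctrl tumors held 3 effector cells.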
